A study of Heliocidaris erythrogramma with 5 samples.

Results

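Macrophage migration inhibitory factor (Mif) family genes were followed in single cells of larvae of the sea urchin *Heliocidaris erythrogramma*. All features were taken whose annotated name is Mif followed by a number, which gave 11 of the 38707 features in the count tables. These were *mif4* (Sp-Mif4, HER_46925.t1), *mif5* (Sp-Mif5, HER_46924.t1), *mif6* (Sp-Mif6, HER_46847.t1), *mif7* (Sp-Mif7) with 2 copies (HER_47408.t1 and HER_47956.t1) and *mif1* (Sp-Mif1) with 6 copies (HER_382.t1, HER_383.t1, HER_384.t1, HER_22448.t1, HER_22474.t1 and HER_22475.t1). A further 4 features are named MifL, for Mif-like, and were not counted as members. The names were carried over from the purple sea urchin *Strongylocentrotus purpuratus*.

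In vertebrates, MIF is a small secreted protein that acts as a cytokine in innate immunity, and it also has a tautomerase fold that converts keto and enol forms of small molecules. Sea urchin genomes hold several MIF-like genes. Sea urchin pigment cells are mesodermal cells that arise under the transcription factor Gcm, settle in the ectoderm and are counted among the larval immune cells. Their red pigment echinochrome is made with the polyketide synthase Pks1, so a *pks1* transcript is a common mark of these cells. The study's own marker list for pigment cells holds *mif4* beside *pks1*, *hox11/13c* and *fmo*, and gives no earlier reference for *mif4*, so the link of *mif4* to *pks1* is not independent of these libraries.

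Whole larvae of this species, which develop without feeding, were dissociated and fixed in methanol, and 1 library was sequenced at each of 36, 42, 48, 56 and 60 hours post fertilization (hpf). The labels name no treatment, genotype or number of larvae or parents, and the library labelled 56 hpf carries another age in its file name and in the study's methods. After the study's filter, 26740 of 26781 barcodes were kept, with 4080 to 8972 cells and a median of 814 to 1634.5 unique molecular identifiers (UMIs) per cell in a library. Of 26710 distinct barcode sequences, 71 occurred in more than 1 library, and 3 cells with *pks1* carried such a barcode. Since each age had 1 library, intervals between ages (95%) cover counting error only, and ages were compared without a test. Age, larval culture and library cannot be told apart here.

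Most Mif transcripts came from 1 gene. The 11 features gave 41593 UMIs, of which *mif4* held 80.0% with 33278 UMIs. *mif5* followed with 2949 UMIs, *mif7* HER_47956.t1 with 2037, *mif7* HER_47408.t1 with 1490, *mif6* with 1026 and *mif1* HER_383.t1 with 721. *mif1* HER_384.t1 had 78 UMIs, and 3 other *mif1* copies had between 2 and 8. The remaining *mif1* copy, HER_22474.t1, had 0 UMIs in 26740 cells, which allows a share of cells with a captured UMI of up to 0.0112% and sets no limit on cells that express it. Copies of *mif1* and *mif7* may share reads if their sequences are nearly identical, and how the authors' counting treated such reads is not given in the sources used here, so the split between copies is uncertain. A mean normalized count of at least 10 was reached by 7 of the 11 members, and those 7 were compared.

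*mif4*, *mif5* and both *mif7* copies were each about 3-fold lower at 60 than at 36 hpf, while *mif6* stayed level and *mif1* HER_383.t1 was highest at 42 hpf. Levels are given as UMIs of the whole library divided by its size factor. The normalized count of *mif4* was 11091, 4810, 7589, 5790 and 3699 in the libraries of 36, 42, 48, 56 and 60 hpf. It was highest in the youngest library and lowest in the oldest, a 2.999-fold difference (2.91 to 3.09), and the order was broken at 42 hpf, which lay below both neighbours. *mif5* stood at 944, 455, 586, 656 and 314 in order of age, 3.01-fold lower at 60 than at 36 hpf (2.70 to 3.35). For *mif7* HER_47956.t1 the counts were 664, 334, 499, 299 and 219, a 3.03-fold difference (2.67 to 3.45). The HER_47408.t1 copy of *mif7* gave 547, 200, 242, 266 and 185.1, or 2.95-fold (2.57 to 3.40). All 4 therefore shared the maximum at 36 hpf and the minimum at 60 hpf, and 3 of the 4 were at least 2-fold lower at 42 than at 36 hpf.

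*mif6* gave normalized counts of 194, 222, 173, 189 and 191, and its ratio of 60 to 36 hpf was 0.983 (0.823 to 1.18). *mif1* HER_383.t1 gave 98.8, 219, 147, 83.1 and 128, with a level at 42 hpf that was 2.22-fold that at 36 hpf (1.76 to 2.81). *mif1* HER_384.t1 lay between 9.12 and 18.1 at all ages, and its ratio of 60 to 36 hpf was 0.851 with an interval of 0.454 to 1.62. Of the 7 members compared, 4 were at least 2-fold lower at 60 than at 36 hpf, where 12.0% of 14061 features were, and 0 were at least 2-fold higher, where 10.2% were. From 36 to 42 hpf, 3 members were at least 2-fold lower against 1.69% of all features, and 1 member, *mif1* HER_383.t1, was at least 2-fold higher against 3.41%. The pigment markers were also lower over this step, *pks1* 2.09-fold (1.76 to 2.48) and *hox11/13c* 2.34-fold (2.05 to 2.69). From 56 to 60 hpf *mif5* was 2.09-fold lower (1.84 to 2.37), the only one of the 7 to reach 2-fold downward, against 4.13% of all features, and 0 were higher, against 3.31%. From 42 to 48 hpf 0 were at least 2-fold higher or lower, against 4.16% and 4.89%, and the same held from 48 to 56 hpf, against 4.11% and 3.66%. The median log2 ratio of 60 over 36 hpf was -1.56 for the 7 members and -0.01 for all features.

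**Figure D1:**
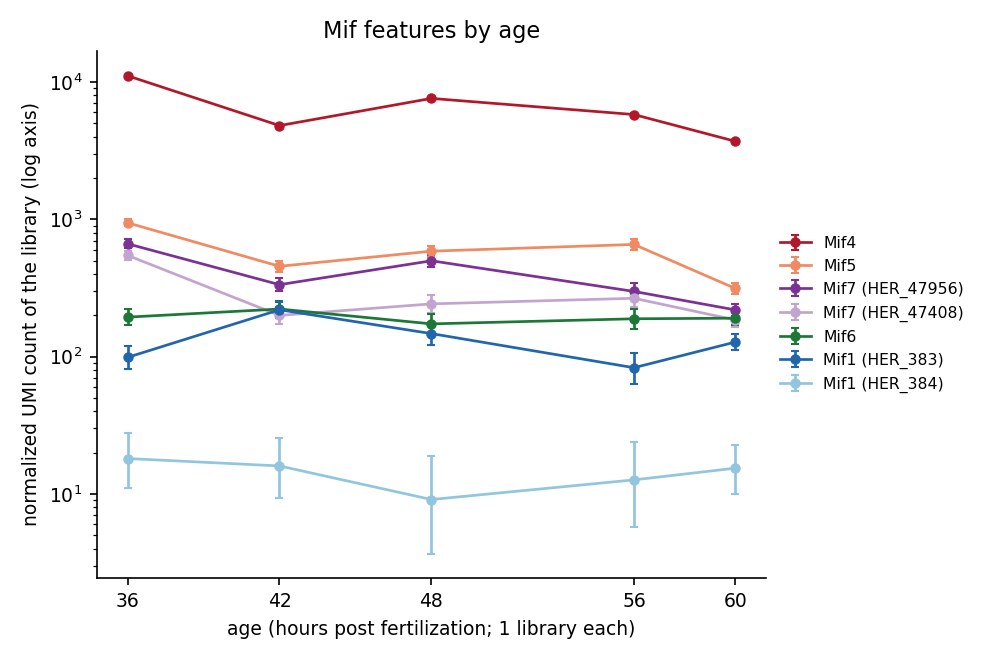
Normalized UMI count (log axis) of the 7 Mif features with a mean of at least 10, against age in hpf, with 1 library per age. Bars are exact 95% Poisson intervals and cover counting error only. *mif4*, *mif5* and both *mif7* copies are highest at 36 hpf and lowest at 60 hpf, *mif6* is level, and *mif1* HER_383 peaks at 42 hpf.

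Among the 4 genes that were lower with age, the share of *mif4* varied little, while the smaller shares moved beyond counting error. Of the UMIs of *mif4*, *mif5* and both *mif7* copies together, *mif4* made up 83.7%, 82.9%, 85.1%, 82.6% and 83.7% in order of age. *mif5* made up between 6.57% and 9.36%, and the 2 *mif7* copies between 2.72% and 5.76% each.

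Between 36 and 60 hpf, the lower *mif4* count did not go with a smaller share of cells with a *mif4* UMI. At 42 hpf both were lower than at 36 hpf. A *mif4* UMI was found in 10.97%, 9.37%, 12.7%, 14.0% and 17.9% of cells in order of age. With every cell thinned to 500 UMIs the shares were 8.75%, 5.67%, 9.58%, 11.3% and 11.3%. As deposited, 30.5%, 47.75%, 37.8%, 37.8% and 40.2% of the detecting cells had a single *mif4* UMI. The part of free RNA or doublets in these shares was not tested. The most *mif4* UMIs in 1 cell were 113, 153, 93, 55 and 36 in order of age, so the oldest library had the largest share of detecting cells and the smallest maximum. For *mif5* the share was 6.40% at 36 hpf and 4.53% at 60 hpf, and the cells with at least 3 *mif5* UMIs numbered 174 and 12. The share was also lower at 60 than at 36 hpf for *mif7* HER_47408.t1 (2.82% and 5.44%) and *mif7* HER_47956.t1 (3.51% and 6.10%).

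The 4 genes were then compared between cells with at least 1 *pks1* UMI and cells with none. There were 234, 117, 136, 131 and 439 cells with *pks1* in order of age, 1057 in all or 3.95% of kept cells (3.72 to 4.19). Their median depth was 1327 UMIs, against 1136 in cells without *pks1*. Levels in sets of cells are given as counts per 1000000 UMIs (CPM), which is not length-corrected. *mif4* was at 19905, 13125, 12435, 9082 and 2489 CPM in cells with *pks1*, in order of age. In cells without *pks1* they were 619, 252, 588, 633 and 361. Every library was higher in its cells with *pks1*, and the ranges over the 5 libraries did not overlap. *mif5* was at 1769, 1369, 887, 1166 and 251 CPM with *pks1* and at 48.9, 20.3, 48.2, 65.9 and 28.0 without. *mif7* HER_47956.t1 was at 1187, 851, 691, 539 and 142 CPM with *pks1* and between 19.2 and 43.5 without. The HER_47408.t1 copy was at 1037, 575, 446, 527.7 and 122 CPM with *pks1* and between 9.64 and 27.7 without. None of these ranges overlapped either, and for all 4 genes the 60 hpf library was the lowest of the 5 in cells with *pks1*. The share of all features whose ranges did not overlap was not computed, so the lack of overlap is a description only.

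With counts summed per library and the library as a block, *mif4*, *mif5* and both *mif7* copies were called higher in cells with *pks1*, *mif6* and *mif1* HER_383.t1 were called lower, and *mif1* HER_384.t1 was not called (edgeR's quasi-likelihood test, Benjamini-Hochberg adjusted p under 0.05 over all features). Over the 19041 features tested, 5.35% were called higher and 9.61% lower, with a median log2 fold change of -0.28, so 4 of 7 members stood among the higher features. By the same edgeR fit the log2 fold change of *mif4* was 4.24 ± 0.22 (SE of the fit, n = 5 libraries, adjusted p = 1.54e-25), which is 19.0-fold. The log2 fold change was 4.44 ± 0.24 for *mif5*, 4.51 ± 0.25 for *mif7* HER_47408.t1 and 4.18 ± 0.24 for *mif7* HER_47956.t1, with edgeR adjusted p of 1.15e-24, 1.03e-23 and 1.37e-23. Each of the 4 was higher in 5 of 5 libraries. With cells thinned to 500 UMIs and *pks1* read after thinning, which left 521 cells with *pks1*, the log2 fold change of *mif4* was 3.36, against a median of -1.14 over all features.

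*mif6* and *mif1* HER_383.t1 lay on the other side of that contrast. *mif6* was at 15.9, 8.77, 9.59, 11.6 and 14.5 CPM in cells with *pks1*, against 27.3, 27.8, 23.8, 32.8 and 26.2 in the others. It was lower in 5 of 5 libraries, with a log2 fold change of -1.19 ± 0.34 (edgeR adjusted p = 0.00737). *mif1* HER_383.t1 was at 2.64, 0, 24.0, 5.80 and 9.20 CPM with *pks1* and at 14.2, 27.7, 19.6, 14.4 and 17.6 without. It was lower in 4 of 5 libraries and the ranges overlapped, with a log2 fold change of -1.31 ± 0.43 (edgeR adjusted p = 0.0254). Behind these values stood 23 *mif6* UMIs and 14 *mif1* HER_383.t1 UMIs in cells with *pks1*, and the 0 at 42 hpf, of 117 cells, allows a share of cells with a captured UMI of up to 2.56%. Neither passed with thinned cells, where the log2 fold change was -1.69 ± 0.75 for *mif6* and -1.71 ± 0.89 for *mif1* HER_383.t1 (edgeR adjusted p of 0.111 and 0.193) and the median of all features was -1.14. Without the 42 hpf library *mif1* HER_383.t1 had a log2 fold change of -0.92 and an edgeR adjusted p of 0.206. Without the 36 hpf library it was at -1.17, with an adjusted p of 0.0605 by the same edgeR test.

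**Figure D2:**
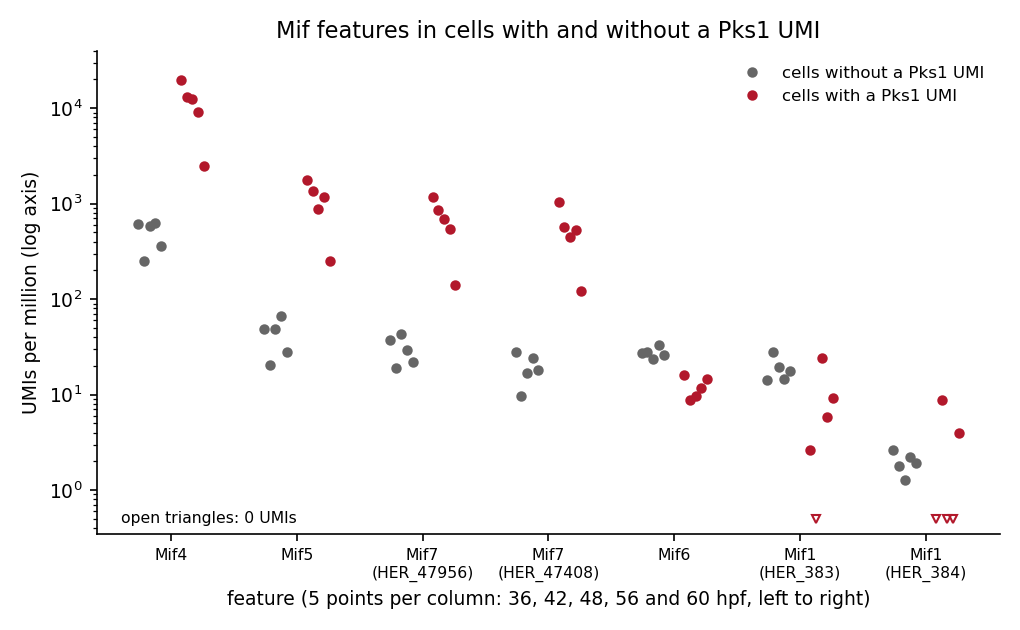
CPM (log axis) of 7 Mif features, summed over cells with a *pks1* UMI (red) and over cells without (grey). Each column holds 5 points, 1 per library from 36 to 60 hpf, and open triangles mark 0 UMIs. The red points of *mif4*, *mif5* and both *mif7* copies lie above all grey points of the same feature, those of *mif6* below, and those of both *mif1* copies overlap with the grey.

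Per cell, 85.9% of the cells with *pks1* had a *mif4* UMI (83.7 to 87.9), against 10.8% of those without (10.4 to 11.2). *mif5* was found in 55.4% and 3.14%, *mif7* HER_47408.t1 in 40.7% and 1.95%, and *mif7* HER_47956.t1 in 45.03% and 2.73%. Thinned to 500 UMIs, the *mif4* shares were 75.1% and 6.87%. The level also went with the number of *pks1* UMIs. *mif4* was at 453 CPM in cells with 0 *pks1* UMIs, 7508 with 1, 12499 with 2 and 17009 with 3 or more, and all of the 106 cells in the last class had a *mif4* UMI. In the same order *mif5* was at 37.7, 671, 1240 and 1714. These pooled classes mix the ages, since 36 hpf gave 135 of the 759 cells with 1 *pks1* UMI and 47 of the 106 with 3 or more, and 60 hpf gave 344 and 26. Within libraries *mif4* went from 18036 CPM with 1 *pks1* UMI to 22236 with 3 or more at 36 hpf, and from 2057 to 5771 at 60 hpf. It was higher with 3 or more than with 1 in all 5 libraries, although the class with 2 was not above that with 1 at 56 hpf (8748 and 8796).

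A *pks1* UMI was nonetheless absent from many cells with these transcripts. Of 3678 cells with *mif4*, 24.7% had *pks1*, with 20.7% to 37.4% by library. The share was 42.1% of the cells with *mif5*, 46.2% with *mif7* HER_47408.t1 and 40.4% with *mif7* HER_47956.t1. At 36 hpf these 3 shares were 56.2%, 57.8% and 52.5%. Of all *mif4* UMIs, 49.8% lay in cells with *pks1*. *mif5* had 52.8% of its UMIs there, *mif7* HER_47408.t1 53.7% and *mif7* HER_47956.t1 48.5%. No member was thus confined to cells with a *pks1* UMI, at a depth where *pks1* gave a single UMI in 759 of its 1057 cells. For *mif6* the part in cells with *pks1* was 2.24% and for *mif1* HER_383.t1 1.94%, where those cells held 4.52% of all UMIs.

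The separation was sharper between clusters. Cells were clustered with the Mif and MifL features taken out of the variable features, which gave 49 clusters, and 2 of these had *pks1* in over 10% of their cells, a limit set after seeing the shares. Cluster 15 (806 cells, *pks1* in 53.8%) was led by *sult1c_2*, a sulfotransferase, *cryz_1*, *comt* and flavin monooxygenases. Cluster 1 (1239 cells, *pks1* in 29.9%) was led by *opsin2*, and *slc5a7_4* was also among its 10 leading genes. No other cluster exceeded 5.00%. The study's *fmo* had 0 UMIs and *mif4* could not be used to name cells, which left fewer than 3 detected pigment markers, so both clusters keep their numbers. The other marker, *hox11/13c*, a homeobox gene, stood at 1151 CPM in cluster 15 and 619 in cluster 1.

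*mif4* reached 19256 CPM in cluster 15 and 5673 in cluster 1, where the 43 other clusters of at least 50 cells ranged from 12.8 to 275 with a median of 77.5. A *mif4* UMI was present in 99.6% and 88.9% of the cells of these clusters, at median depths of 1289.5 and 877 UMIs. Elsewhere the share of cells with *mif4* ran from 3.25% to 19.6% by cluster, and it was 6.71% over all cells outside both clusters that lacked *pks1*, at a median of 1144 UMIs. *mif5* was at 1713 and 506 CPM in clusters 15 and 1, and between 0 and 34.1 in the others. *mif7* HER_47408.t1 was at 840 and 249.6 in clusters 15 and 1, and *mif7* HER_47956.t1 at 1157 and 305, against at most 26.3 and 25.9 elsewhere. Clusters 15 and 1 together held 90.1% of the *mif4* UMIs, 90.5% of *mif5*, 88.0% of *mif7* HER_47408.t1 and 86.0% of *mif7* HER_47956.t1, in 7.65% of the cells. For *mif6* and *mif1* HER_383.t1 they held 3.704% and 1.94%.

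**Figure D3:**
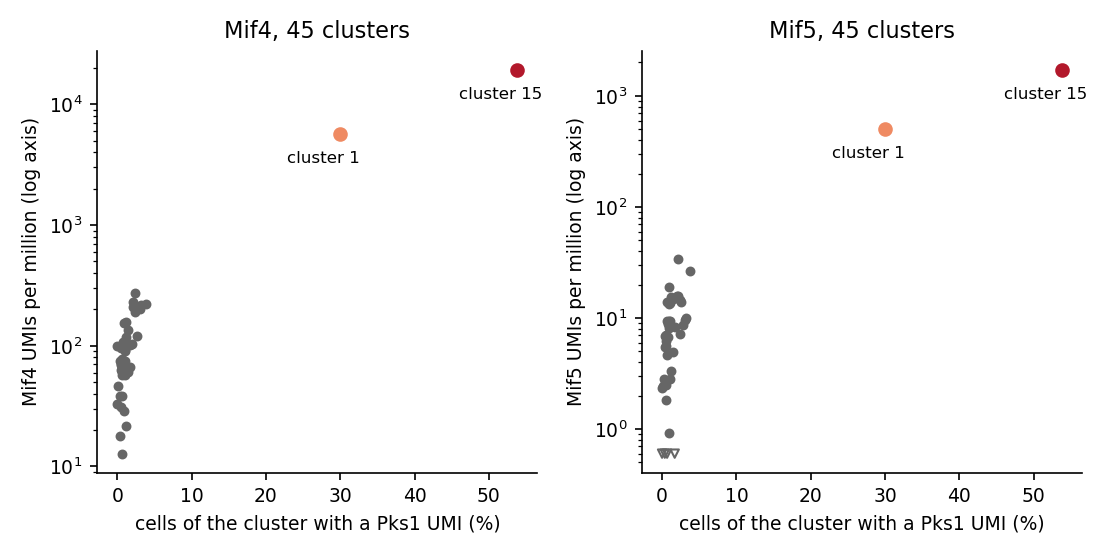
CPM (log axis) of *mif4* and *mif5* against the percentage of cells with a *pks1* UMI, for 45 clusters of at least 50 cells made without the Mif features. Open triangles mark clusters with 0 UMIs. Clusters 15 and 1 lie apart from the 43 others, which stay at or under 275 for *mif4* and 34.1 for *mif5*.

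Inside these clusters, *mif4* was only slightly higher in cells with a *pks1* UMI than in cells without. In cluster 15 it was at 19984 CPM in 434 cells with *pks1* and at 18238 in 372 cells without, a ratio of 1.10 (1.07 to 1.13). In cluster 1 it was at 6233 in 371 cells and 5422 in 868 cells, a ratio of 1.15 (1.10 to 1.20). By library the ratio ran from 0.991 to 1.47 in cluster 15 and from 0.898 to 1.72 in cluster 1. In cluster 15 the pooled ratio was 1.22 for *mif5*, 1.39 for *mif7* HER_47408.t1 and 1.05 for *mif7* HER_47956.t1. In cluster 1 it was 1.38, 1.36 and 1.29 for these genes in the same order. Outside both clusters, 252 cells had *pks1* and their *mif4* level was 847 CPM, against 77.5 in the 24443 cells without. These 252 cells were deep, with a median of 2161.5 UMIs, 161 of them were from 60 hpf, and doublets were not called. The part that doublets or free RNA had in these values was not tested.

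The lower *mif4* count of older larvae was then set against the size and level of these clusters. Cluster 15 made up 6.79%, 3.702%, 5.20%, 1.49% and 0.156% of the cells in order of age, and cluster 1 made up 0.226%, 0.305%, 1.81%, 6.36% and 9.80%. Both together were 7.02% of cells at 36 hpf, 4.01% at 42 hpf and 9.95% at 60 hpf. The lower count at 42 hpf thus went with a smaller share of such cells, and that at 60 hpf with a larger share. Cluster 15 held 95.8% of the *mif4* UMIs at 36 hpf and 2.85% at 60 hpf, whereas cluster 1 held 2.06% and 68.1%. The *mif4* level within cluster 15 was 21815, 17772, 17297, 14362 and 10329 CPM in order of age, the last from 14 cells. Within cluster 1 it was 10796, 6180, 8720, 11491 and 3965, the first 2 from 12 and 13 cells. Cluster 15 was above cluster 1 in all 5 libraries, by 1.2499-fold at 56 hpf to 2.88-fold at 42 hpf. Both clusters were lower at 60 than at 36 hpf, 2.11-fold (1.82 to 2.47) and 2.72-fold (2.39 to 3.09), and pooled they were 5.25-fold lower (5.07 to 5.44). Clusters were made from the same cells, so these values are a description with no test.

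Cells chosen by *pks1* alone gave the same order. *mif4* was 8.00-fold lower in cells with *pks1* at 60 than at 36 hpf (7.602 to 8.41), while it was 1.72-fold lower in cells without (1.65 to 1.79). The cells with *pks1* lay in different clusters at these ages, with 89.7% in cluster 15 at 36 hpf and 1.59% there, 61.7% in cluster 1 and 36.7% outside both at 60 hpf, so the 8.00-fold difference is not one within a cluster. The ratio of cells with to cells without *pks1* was 32.2, 52.1, 21.1, 14.3 and 6.90 in order of age. *pks1* itself, as a normalized count, was 392 at 36 hpf, 187 at 42 hpf and 353 at 60 hpf. At the same ages *hox11/13c* was 660, 282 and 484. *opsin2*, which leads cluster 1 and whose product is a light-sensing receptor, was 244 at 36 hpf and 1650 at 60 hpf.

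**Figure D4:**
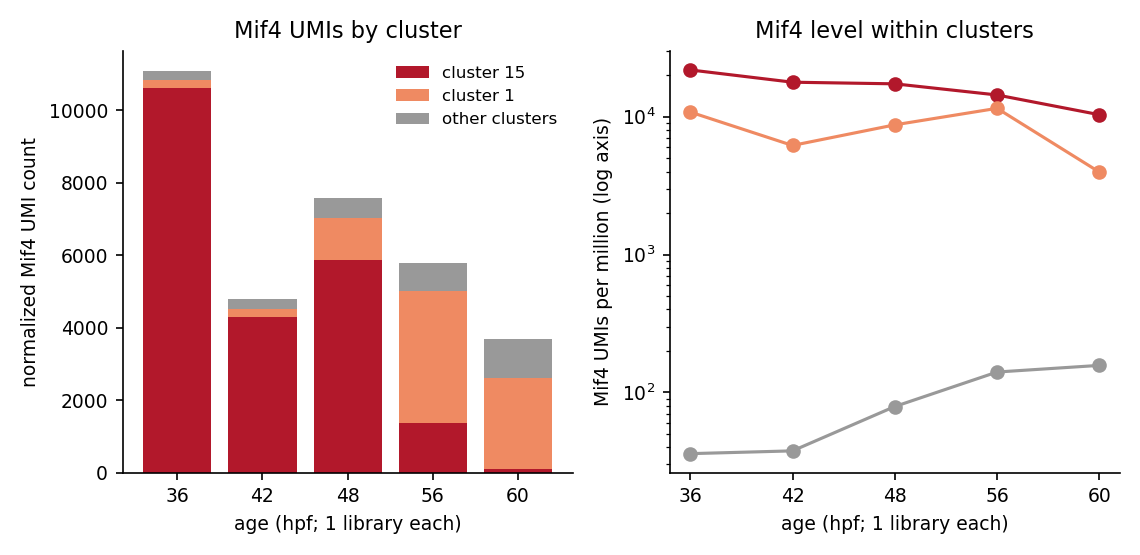
Left, normalized *mif4* UMI count by age, stacked by the cluster of the cell: cluster 15 (red), cluster 1 (orange) and all others (grey). Right, *mif4* CPM (log axis) within the same 3 sets of cells. Cluster 15 supplies 95.8% of the UMIs at 36 hpf and cluster 1 supplies 68.1% at 60 hpf, and all other clusters go from 36.0 to 157 CPM.

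Outside both clusters *mif4* was at 36.0, 37.7, 79.0, 140 and 157 CPM in order of age, which is 4.37-fold higher at 60 than at 36 hpf (3.84 to 4.99). A *mif4* UMI was found in 4.27% of the cells outside both clusters at 36 hpf and in 10.3% at 60 hpf. At 60 hpf it was at 265 CPM in neural-like cells and 251 in blastocoelar-like cells, and at 58.6 in animal pole-like cells, with intervals of 234 to 300, 206 to 302 and 42.9 to 78.2. Free RNA in droplets and doublets can give such UMIs. *mif5* was 7.70% of the *mif4* and *mif5* UMIs of cells outside both clusters without *pks1* (6.76 to 8.71), 8.49% in cluster 15 cells with *pks1* (8.04 to 8.95) and 7.69% in cluster 1 cells without (7.02 to 8.41). In cluster 1 cells with *pks1* it was 9.12% (8.11 to 10.2). The pooled percentages of these and the remaining sets lay between 7.68% and 9.12%, where the *mif4* level ranged from 77.5 to 19984 CPM. By library they varied more. In cluster 15 cells with *pks1* they ran from 6.36% at 60 hpf, from 7 *mif5* UMIs, to 13.7% at 56 hpf (11.3 to 16.4). The part of free RNA was not tested.

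The 4 genes were found together in single cells. Of the 1057 cells with *pks1*, 722 had at least 2 of *mif4*, *mif5* and the 2 *mif7* copies, or 68.3% (65.4 to 71.1), and 241 had all 4. Of the cells without *pks1*, 3.99% had at least 2 (3.75 to 4.24) and 153 cells had all 4. By library, the share with at least 2 among cells with *pks1* was 90.2%, 80.3%, 77.9%, 80.2% and 46.9% in order of age. All 4 genes were found in 120 of 234 cells with *pks1* at 36 hpf and in 9 of 439 at 60 hpf, where the level was lower. Of 1393 cells with *mif5*, 89.2% also had *mif4*, as did 90.4% of the cells with *mif7* HER_47408.t1 and 84.8% of those with *mif7* HER_47956.t1. *mif5* and *mif4* were found together in 1243 cells, where 605 would be reached if both were independent within each library and *pks1* state. Among cells with *pks1* the count was 568 and the independent value 515. Cells differ in depth and in cluster, which raises such counts for any pair. *mif5* or a *mif7* without *mif4* was seen in 394 of 2118 cells.

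*mif1* HER_383.t1 and *mif6* had other places. Clusters named verified rudiment ectoderm-like from the study's markers, the epithelium of the developing adult body, held 34.0% of the *mif1* HER_383.t1 UMIs in 1240 cells with 8.34% of all UMIs. There *mif1* HER_383.t1 was at 104, 92.3, 55.3 and 51.0 CPM at 42, 48, 56 and 60 hpf, and at 15.8, 12.9, 8.18 and 13.7 in all other cells. The class was higher in all 4 libraries in which it had at least 50 cells, by 3.71-fold to 7.17-fold. Its 2 clusters were deep, with medians of 2290 and 2899 UMIs per cell. Cluster 13, which stayed unnamed and was led by *chst14L_1* and *prdm14_1*, was also high at 59.8, as was unnamed cluster 44 at 61.7 from 5 UMIs in 50 cells. With cluster 13 the part of the *mif1* HER_383.t1 UMIs came to 50.5%. No other named class exceeded 33.4 in a library with at least 50 of its cells, and cluster 15 stood at 3.51.

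*mif6* was spread more evenly. Its level ran from 4.73 to 49.3 CPM over the 43 clusters other than 1 and 15, with a median of 25.2. It was highest in cluster 6, a verified rudiment ectoderm-like cluster, and that class stood at 38.5, 44.1, 76.3 and 39.0 at 42 to 60 hpf, against 25.7, 21.3, 25.6 and 24.1 in all other cells, or 1.49-fold to 2.98-fold. Animal pole-like, posterior ectoderm-like and larval ectoderm-like cells lay at 32.5, 36.2 and 26.0 over all libraries. Putative rudiment ectoderm-like cells lay at 30.9, but cluster 24, which holds 559 of these 1684 cells, was led by *neuroD* and *scratch*, known as genes of nerve cells, and stood at 24.2. Neural-like cells at 13.4, blastocoelar-like cells at 12.6 and cluster 15 at 9.65 lay below these values.

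**Figure D5:**
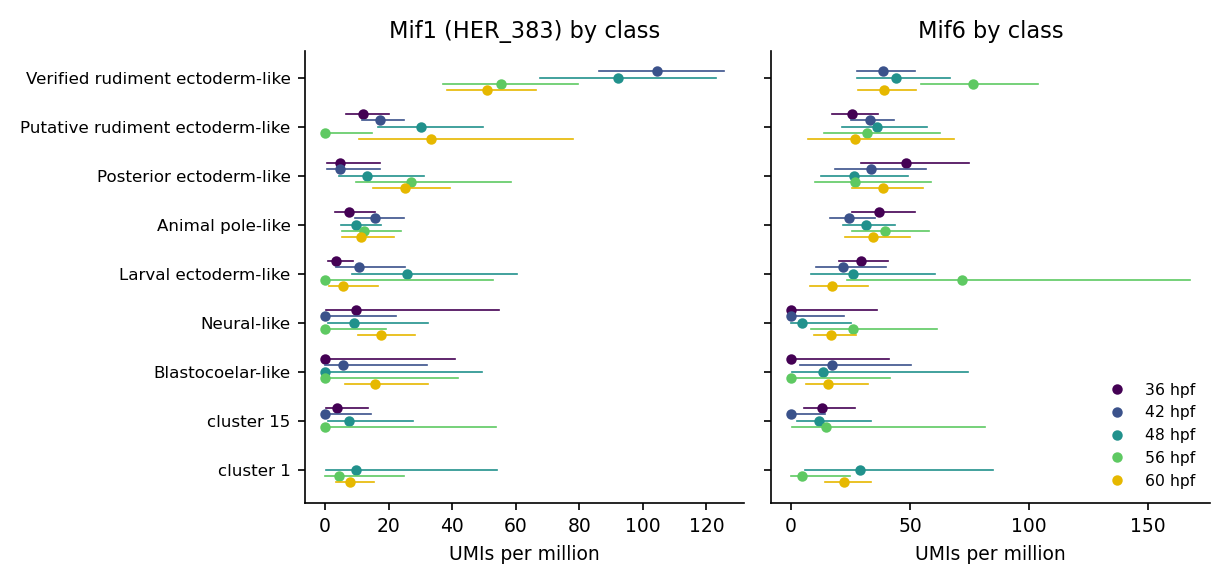
CPM of *mif1* HER_383 and *mif6* in 7 named classes and in clusters 15 and 1, for each library with at least 50 cells of the class (colours, 36 to 60 hpf). Bars are exact 95% Poisson intervals. *mif1* HER_383 is highest in verified rudiment ectoderm-like cells, at 51.0 to 104, and *mif6* is spread over more of the classes.

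Patterns over clusters grouped the members in the same way. Across 45 clusters, Pearson's r of log2(CPM + 10) was between 0.92 and 0.95 for every pair of *mif4*, *mif5* and the *mif7* copies, 0.46 for *mif6* and *mif1* HER_383.t1, and between -0.37 and -0.16 for pairs across these groups. The clusters share libraries, and cluster 15 and cluster 1 set most of the high values. Among 12153 features with at least 100 UMIs, *pks1* (r = 0.9496) was the most like *mif5*, followed by *cryz_1* (0.948) and *ddesat* (0.944). *mif4* was most like *pofut1L4* (0.963), *fmo2_2* (0.958), *chrna7-3* (0.956) and *hypp_1597* (0.955). *fmo5_1* and *hypp_464* completed the 5 most like *mif5*. *mif7* HER_47408.t1 had *chrna2* (0.951), *slc16a9_3*, *abcg11*, *hypp_464* and *htrla*, and *mif7* HER_47956.t1 had *sdr* (0.956), *abcg11*, *slc15a4*, *cytb561_1* and *hypp_464*. *mif1* HER_383.t1 was most like *slc16a6_3* (0.800), then *trpc4L*, *z421*, *slc5a9_8* and *ptgr1*. For *mif6* these were *orct_1* (0.733), *xyli*, *sumf2*, *r/ptp/10D* and *hypp_2701*. The identifiers of *mif4* and *mif5* follow each other, with *pks1* at HER_46918.t1, and *pofut1L4* (HER_47409.t1) follows *mif7* HER_47408.t1. Their places in the genome were not examined here.

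Other pigment cell genes gave a mixed picture in the contrast of cells with and without *pks1*. Of 12 features tested from a list of pigment cell genes, 5 were called higher and 0 lower by edgeR, where 5.35% and 9.61% of all features were, with a median log2 fold change of 0.39 against -0.28 over all features. Among these were *hox11/13c* (4.27), *papss* (3.74), which makes the sulfate donor, *opsin2* HER_24945.t1 (3.55) and *gcm* (3.39), the regulator of pigment cell fate. The 2 *mif7* copies, *mif5* and *mif4* thus had log2 fold changes near that of *hox11/13c*, the highest of the list. Of 20 features tested from a list of immune-type genes, 1 scavenger receptor (*srcr* HER_44403.t1, 2.42) was called higher and *scl* (-1.55), a transcription factor of blastocoelar cells, was called lower, with a median of -0.46. That is 1 of 20 in each direction, beside 5.35% and 9.61% of all features. None of 13 entries of a list of vertebrate MIF partners, such as the receptor Cd74 and the paralogue Ddt, matched an annotated symbol, so no partner could be compared.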

How the data were processed

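The authors deposited, per library, whole-number UMI counts of 38707 features per called cell, made with Cell Ranger 3.1.0 (3′ v3.1 chemistry), and the submitters' notes also name Seurat 4.0. The genome build is not given in the sources used here. The study's cell filter was applied again: more than 200 genes, fewer than 4000 genes and fewer than 10000 UMIs. All deposited columns belong to these libraries. Doublets were neither called nor removed.

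Counts were summed per library and divided by median of ratios size factors (DESeq2 1.42.0). Features with a mean of at least 10 were compared between ages as ratios with 1 added, called at 2-fold. Ages have no replicates. Intervals (95%, Poisson or Clopper-Pearson) cover counting error only, since UMIs of 1 library share its making.

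Cells with and without a *pks1* UMI were compared with edgeR 4.0.16 (quasi-likelihood, TMM, library as block, features with at least 10 UMIs, *pks1* left out) on 5 libraries. Both sums of a block come from the same larvae and the same library, which is where the pairing comes from. The libraries are different ages. The fit shares its estimate of spread across features, so its SE and p-values do not measure the spread of 1 gene between these libraries alone. For *mif4* the ratio of cells with to cells without *pks1* ran from 6.90 to 52.1 by library. The fit was also run on simulated counts with known folds. These folds were the same in every library, with no difference between ages. The simulation therefore cannot check how the real spread between ages bears on the p-values. Clusters came from SCTransform 0.4.2 in Seurat 5.3.0 (R 4.3.3, Poisson fit in place of the study's; 6000 variable features without Mif, 195 components, Louvain resolution 3), named by at least 3 of the study's markers, several of which the study picked from these libraries.

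Named were all Mif features, the study's pigment markers, the 3 largest rises and falls called in each of 3 lists (*gcm* of the first list was added after its value was seen), and the 5 features most like each Mif feature with at least 100 UMIs. Some features that this rule names are not reported here. Members and lists were chosen with earlier results of these data known. Alternatives changed the size factors, test, filters, *pks1* minimum, depth, block, libraries and clustering.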

Additional observations from a re-analysis of the deposited data

How the results depend on the processing

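The 4 Mif features called higher with *pks1* were called higher under all 14 alternatives, leaving out each library included, and the 4 that were at least 2-fold lower at 60 than at 36 hpf were so under all 6. Over all features, 1019 were called higher and 1829 lower. The higher count was 637 with *pks1* at 2 UMIs or more and 495 with thinned cells. Without the replicate block the lower count was 467. Leaving out a library gave 762 to 1124 higher and 1457 to 2135 lower.

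The Mif features called lower were 2, but 1 under DESeq2's Wald test, a minimum of 50 UMIs, cells with over 500 genes and no replicate block, 0 with thinned cells, and 1 to 2 without 1 library. *mif1* HER_383.t1 was the one lost, with an adjusted p of 0.0897 (DESeq2), 0.0543, 0.0557 and 0.144 (edgeR) in that order, at log2 fold changes of -1.33, -1.29, -1.24 and -1.36 against -1.31. The block otherwise changed no Mif call. Across settings the median log2 fold change of all features was -0.28 with TMM, -0.22 with DESeq2's factors, -0.01 under the Wald test, -0.65 with no filter, -0.93 with *pks1* at 2 UMIs or more and -1.14 with thinned cells. The causes were not tested.

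Of cells with *pks1*, 88.9% had *mif4*, *mif5* or a *mif7*, 78.9% after thinning, 99.3% with *pks1* at 2 UMIs, and 87.5% to 91.7% without 1 library. At least 2 of the 4 were found in 6.53% of kept cells, 4.25% after thinning, 68.3% of cells with *pks1* only, and 6.37% to 6.95% without 1 library. The log2 ratio of *mif4* between the clusters rich in *pks1* and all other cells was 7.01, also 7.01 at resolution 1 (1 cluster of 2043 cells), 7.04 with log-normalized counts (4 clusters of 2245 cells) and 4.61 for 540 cells with both *pks1* and *hox11/13c*.

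With a median of 814 to 1634.5 UMIs per cell, a missing *pks1* UMI does not show that a cell lacked the transcript. With 1 library per age, differences between libraries and between ages cannot be told apart.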

Other observations

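The 2 MifL1 features with 1192 and 1041 UMIs followed another course than *mif4*. MifL1 HER_37992.t1 had normalized counts of 168, 136, 151, 335 and 314 in order of age, 1.87-fold higher at 60 than at 36 hpf (1.58 to 2.23). MifL1 HER_37994.t1 had 99.7, 190, 163, 231 and 271, 2.72-fold higher (2.20 to 3.39). Between cells with and without *pks1* the log2 fold changes were -0.32 ± 0.30 and 0.42 ± 0.29 (SE, edgeR adjusted p of 0.557 and 0.406, Benjamini-Hochberg), and neither passed the test. The intervals between ages cover counting error only.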
